A study of Arabidopsis thaliana with 16 samples.

Results

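A set of 5 nuclear genes of the photosynthetic light reactions was followed on expression arrays of the Arabidopsis pete1 mutant: PSAN (AT5G64040), PSBW (AT2G30570), PSBY (AT1G67740), PSB27 (AT1G03600) and LHCB1.5 (AT2G34420, listed in the array annotation as LHB1B2). They were chosen as the genes of these names to which a probe is assigned alone, which gave 5 of the 692 probes that name 1 gene, on arrays of 3439 probes. The series holds total RNA on 8 arrays of pete1, a mutant without 1 of the plastocyanin isoforms, and 8 arrays of the wild type (WT). Both groups were of ecotype Columbia 0 and were grown on soil. The labels give neither the kind of pete1 allele, nor the age or organ of the plants, nor whether each array had a plant or culture of its own. The tests below therefore weigh differences against the spread from array to array, which could be partly or wholly technical. None of the plastocyanin genes has a probe of its own (0 probes), so the mutated gene could not be used to check the labels.

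In the thylakoid membrane, photosystem II takes electrons from water and passes them through a cytochrome complex to plastocyanin, the copper protein of the lumen that hands them on to photosystem I. Chlorophyll-binding antenna proteins feed light energy to both photosystems. PSAN encodes subunit N of photosystem I, a lumenal protein on the side where plastocyanin docks, and is therefore the gene of the group closest to the missing protein. PSBW and PSBY encode small membrane subunits of photosystem II, PSB27 a lumenal factor in its assembly and repair, and LHCB1.5 a protein of the major trimeric antenna of photosystem II.

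The arrays were uneven before scaling. The deposited intensities run from 0 to a ceiling of 100, and array medians were 0.0524 to 0.205 on pete1 arrays and 0.129 to 0.193 on WT arrays. Values of 0 made up 15.8% to 24.6% of a pete1 array and 13.2% to 17.8% of a WT array. Within a group, neighbours in replicate number (1 with 2, 3 with 4, 5 with 6 and 7 with 8), called consecutive arrays here, resembled each other: their deviations from the group mean correlated across probes with a median of 0.439, against -0.3 for other arrays. Removing the group mean itself pushes such correlations below 0, so the -0.3 does not show unlikeness, while the 0.439 of consecutive arrays lies above 0. Tests of the 5 genes were therefore run over all 16 arrays and again over 8 averages of consecutive arrays, 4 a group. The averages are the unit of every mean ± SD below.

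All 5 genes had intensities above 0 on all 16 arrays. PSBW had the highest median intensity in both groups, although LHCB1.5 was brighter on 5 of 16 arrays. PSBW lay at percentiles 99.3 to 99.8 of the probes of a pete1 array and 98.8 to 99.8 of a WT array, with a best rank of 7 and of 9. LHCB1.5 lay at percentiles 98.5 to 99.7 in pete1 and 91.8 to 99.6 in WT, and PSAN at 97.3 to 99.1 in pete1 and 96.7 to 98.8 in WT. PSBY had median percentiles of 96.9 in pete1 and 95.4 in WT, and PSB27 of 90.4 in pete1 and 94.6 in WT. These places within the array do not depend on how arrays are scaled to each other, but a probe's brightness also depends on the probe, so they do not order the transcripts by abundance.

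**Figure D1:**
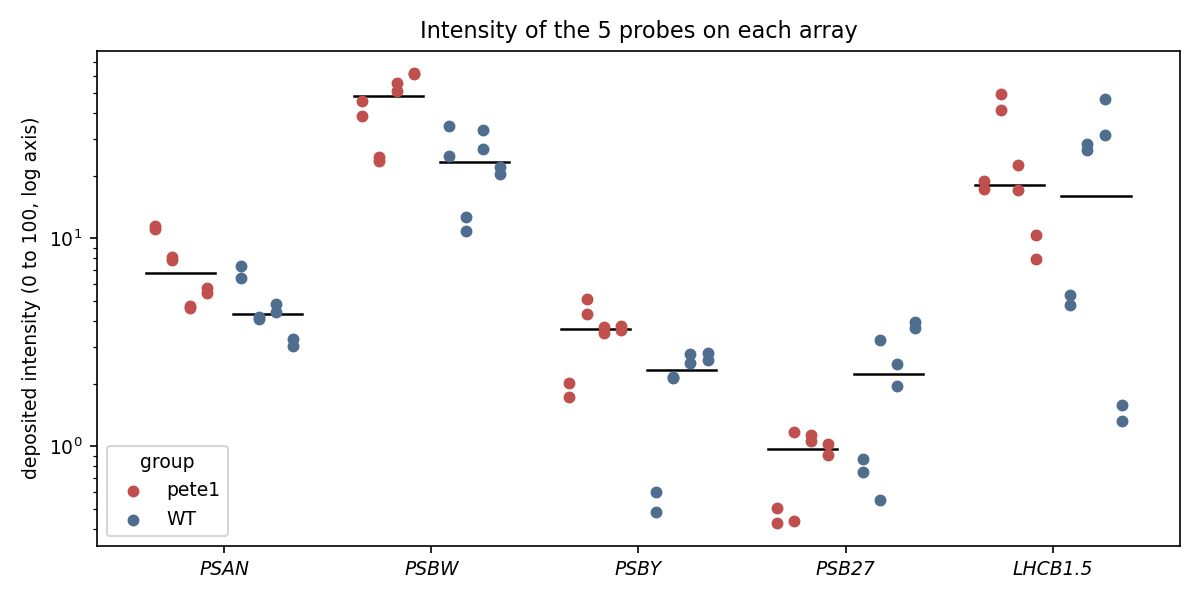
Deposited intensity (log axis) of the 5 genes on each of 8 pete1 arrays (red) and 8 WT arrays (blue). Points of consecutive replicate numbers share a column, in number order from left to right, and bars are group medians; the groups overlap for every gene, PSBY is low on WT replicates 1 and 2, and LHCB1.5 spans a 35.2-fold range in WT.

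Photosystem I subunit gene PSAN had intensities of 4.61 (lowest), 6.82 (median) and 11.5 (highest) on the 8 pete1 arrays, against 3.04, 4.3 and 7.32 on the 8 WT arrays. The ranges overlapped, although all 8 pete1 arrays lay above the WT median. In log2 units after quantile normalization, PSAN averaged 2.78 ± 0.77 in pete1 and 2.22 ± 0.74 in WT (SD, n = 4 averages each). The change of 0.56 did not pass the test (SE 0.36, limma adjusted p = 0.271 over 16 arrays; SE 0.53, adjusted p = 0.570 over averages). Replicates 1 and 2 were the brightest for PSAN in both groups. The change over averages was 0.22 without the pete1 pair and 0.94 without the WT pair. Leaving out replicates 1 and 2 of both groups, chosen after the data were seen, gave 0.59 (limma adjusted p = 0.119 over 12 arrays).

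PSBW, whose product helps to hold photosystem II and its antenna together, had pete1 intensities of 23.6, 48.4 and 62.0 (lowest, median and highest) and WT intensities of 10.8, 23.3 and 34.6. All 8 pete1 arrays lay above the WT median and 6 above the highest WT array; the low pete1 values were those of replicates 3 and 4, and the lowest WT values also carried these numbers. After quantile normalization PSBW averaged 5.36 ± 0.80 in pete1 and 4.58 ± 0.81 in WT (log2, SD, n = 4 averages each). This change of 0.78 did not pass (SE 0.38, limma adjusted p = 0.142 over 16 arrays; 0.418 over averages).

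PSBW passed the test over 16 arrays under other scalings. With each array centred on its median, its change was 1.46 (limma adjusted p = 0.00472 over 16 arrays) and the groups did not overlap on any array, at 8.01 to 9.61 in pete1 and 6.38 to 7.70 in WT on that log2 scale. With the 75th percentile as the scale it was 1.43 (adjusted p = 0.00555). With median centring 4.89% of all probes were called higher in pete1. The lack of overlap was not particular to PSBW. The median-centred values of PSBY were also apart, at 4.15 to 5.98 in pete1 and 1.5 to 4.13 in WT. The share of all probes whose groups were apart with median centring was not counted. Over averages the median-centred change of PSBW did not pass either (adjusted p = 0.183).

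PSBY encodes a precursor that is cut into small membrane proteins of photosystem II. Its pete1 intensities were 1.72, 3.68 and 5.09 (lowest, median and highest), and its WT intensities 0.482, 2.33 and 2.82. After quantile normalization 7 of 8 pete1 arrays lay above the highest WT array, and the averages were 1.5, 2.28, 1.63 and 1.82 in pete1 and -0.78, 1.02, 1.03 and 1.43 in WT. The averages of the groups thus did not overlap, as in 9.71% of all probes.

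PSBY was the only one of the 5 genes that passed the test over 16 arrays in quantile-normalized values, with a rise of 1.13 on the log2 scale (SE 0.35, limma adjusted p = 0.0413), or 2.19-fold. It averaged 1.81 ± 0.34 in pete1 and 0.67 ± 0.99 in WT (SD, n = 4 averages each). Of all probes 13.5% were called in that fit and 8.23% were called higher in pete1. The share called was 25.4% without pete1 replicate 5, and 9.1% to 12.7% with any other single array left out. Against the 13.5%, 1 called gene among 5 is near the background. Over the 8 averages, where 0.262% of probes were called, PSBY did not pass (SE 0.52, adjusted p = 0.312), nor did any other of the 5.

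PSBY lay close to the threshold over 16 arrays. With 1 of 9 arrays left out (pete1 replicate 1, 3, 4, 6, 7 or 8, or WT replicate 1, 2 or 5) its change was 0.91 to 1.18, but it no longer passed (limma adjusted p from 0.0511 to 0.0723). WT replicates 1 and 2 had the lowest PSBY values, and without both of them the change over averages was 0.66 (adjusted p = 0.448). Without replicates 1 and 2 of both groups, left out after the data were seen, PSBY rose by 0.75 (adjusted p = 0.0320 over 12 arrays). Of all probes 13.9% were called in that fit, and it was not repeated over averages. The PSBY intensities, 3.51 to 5.09 in pete1 and 2.13 to 2.82 in WT, did not overlap there. How many of all probes were apart there was not counted.

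PSB27 was the only one of the 5 with a negative change, and that held in each of the 41 other settings run (changes of -1.22 to -0.51), while the other 4 genes had positive changes in all of them. These settings reuse the same arrays and are not separate tests. Those that alter only floors, blocks or averaging repeat the same change for these genes by construction. The pete1 intensities of PSB27 were 0.427, 0.972 and 1.17 (lowest, median and highest), and its WT intensities 0.550, 2.22 and 3.96. Of the WT arrays 5 lay above every pete1 array. PSB27 averaged -0.15 ± 0.10 in pete1 and 0.76 ± 0.90 in WT (log2, SD, n = 4 averages each). The change of -0.90 did not pass (SE 0.40, limma adjusted p = 0.100 over 16 arrays; SE 0.49, adjusted p = 0.336 over averages).

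The spread of PSB27 was uneven. Its pete1 averages, from -0.23 to -0.01, lay closer together than its WT averages, from -0.16 to 1.98. WT replicates 3 and 4 disagreed, with intensities of 3.23 and 0.550. Their difference of 2.62 on the log2 scale was larger than that of 99.1% of probes in that pair of arrays. In pete1, replicates 3 and 4 were 1.17 and 0.439, a difference of 1.2 that exceeded 87.5% of probes.

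LHCB1.5 varied most. Its intensities were 7.96, 18.0 and 49.5 (lowest, median and highest) in pete1 and 1.32, 15.9 and 46.4 in WT, a 6.22-fold and a 35.2-fold range. WT replicates 7 and 8 were lowest, at 1.32 and 1.58, and pete1 replicates 7 and 8 were also the lowest of their group, at 7.96 and 10.3. LHCB1.5 averaged 4.35 ± 0.96 in pete1 and 3.19 ± 2.13 in WT (log2, SD, n = 4 averages each). The change of 1.16 did not pass (SE 0.68, limma adjusted p = 0.231 over 16 arrays, and SE 0.86, adjusted p = 0.456 over averages). Over averages it was 0.20 without WT replicates 7 and 8, and 1.57 without pete1 replicates 7 and 8. With any other pair of consecutive arrays left out the change was 0.74 to 1.70. With arrays weighted by their quality in limma it was 0.31 (adjusted p = 0.728 over 16 arrays).

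Its pooled SD between averages, 1.65, was larger than that of 95.6% of the 344 brightest probes (the top 10%), whose median was 0.68. PSAN, PSBW, PSBY and PSB27 had pooled SDs of 0.75, 0.80, 0.74 and 0.64, near that median. Consecutive arrays differed by a mean of only 0.05 for PSAN and 0.16 for PSBY, but by 0.33 for PSBW, 0.32 for LHCB1.5 and 0.62 for PSB27, where the median bright probe differed by 0.16. LHCB1.5 belongs to a family of near-identical antenna genes, and whether its probe also binds their transcripts was not tested.

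**Figure D2:**
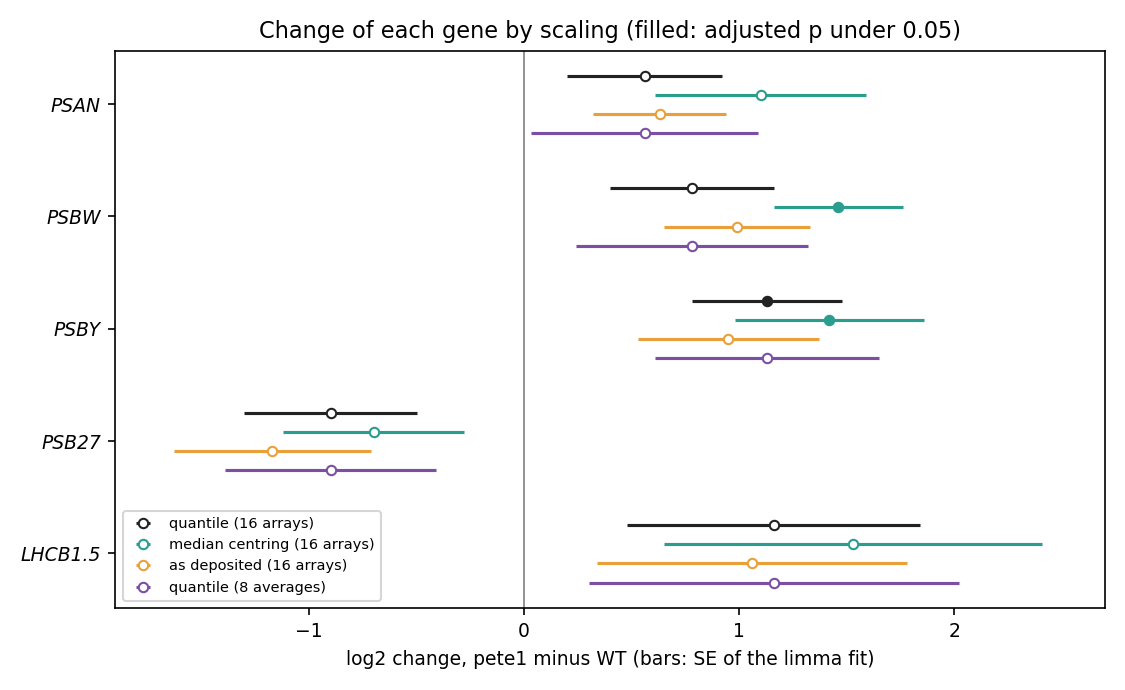
Log2 change (pete1 minus WT) of the 5 genes with the SE of the limma fit, for 3 scalings over 16 arrays and for quantile-normalized averages. Filled points passed an adjusted p of 0.05: PSBY with quantile normalization and median centring, and PSBW with median centring; PSB27 lies below 0 in each fit drawn.

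The scaling and the floor under low values also moved the other probes, so each change needs the median probe beside it. The median probe changed by 0.22 with quantile normalization, by -0.09 with median centring and by -0.56 as deposited. The 0.22 holds with a floor set per array, where the median of the brightest 10% was 0.13. With 1 floor for all arrays the median probe changed by 0.01. Relative to the median probe, PSAN, PSBW, PSBY and LHCB1.5 were 0.34, 0.56, 0.91 and 0.93 higher in pete1 with quantile normalization. They were 0.55, 0.78, 1.13 and 1.15 higher with 1 floor, and 1.19, 1.55, 1.51 and 1.62 higher on the deposited scale. PSB27 was below it, at -1.13 with quantile normalization, -0.91 with 1 floor and -0.61 on the deposited scale. In the quantile-normalized fit the change of PSBY exceeded that of 89.8% of all probes and that of LHCB1.5 90.7%, while 9.8% of probes had a lower change than PSB27. These are RNA levels of whole samples, in which fewer cells of a type and less RNA per cell cannot be told apart.

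Ratios between probes of the same array do not depend on scaling, and PSBY stood apart from PSB27 in them. The PSBY to PSB27 intensity ratio was 3.10, 4.0 and 9.83 (lowest, median and highest) on pete1 arrays and 0.640, 0.708 and 3.90 on WT arrays. Replicate 4, low for PSB27, gave the highest ratio of each group. WT replicate 4, at 3.90, lay within the pete1 range, so the groups overlapped over all arrays. On the 7 other arrays of each group the ratios were 3.10 to 4.36 in pete1 and 0.640 to 1.43 in WT. Replicate 4 was set aside after its ratio was seen, so the lack of overlap without it is a description and not a test. How many other pairs of probes were apart in this way was not counted.

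On the log2 scale the ratio of PSBY to PSB27 averaged 2.09 ± 0.43 in pete1 and -0.03 ± 0.61 in WT (SD, n = 4 averages each), a difference of 2.12 or 4.36-fold. The two-sided exact permutation p was 0.0286 over averages, the smallest that 4 against 4 can give, and 0.286 after adjustment over the 10 ratios among the 5 genes. Over 16 arrays the exact p was 0.000622 and the adjusted p 0.00622, with consecutive arrays counted as separate. In 11 other settings of this ratio, including each pair of arrays left out, the difference was 1.92 to 2.36. The signs of both genes' changes were known when this ratio was singled out.

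**Figure D3:**
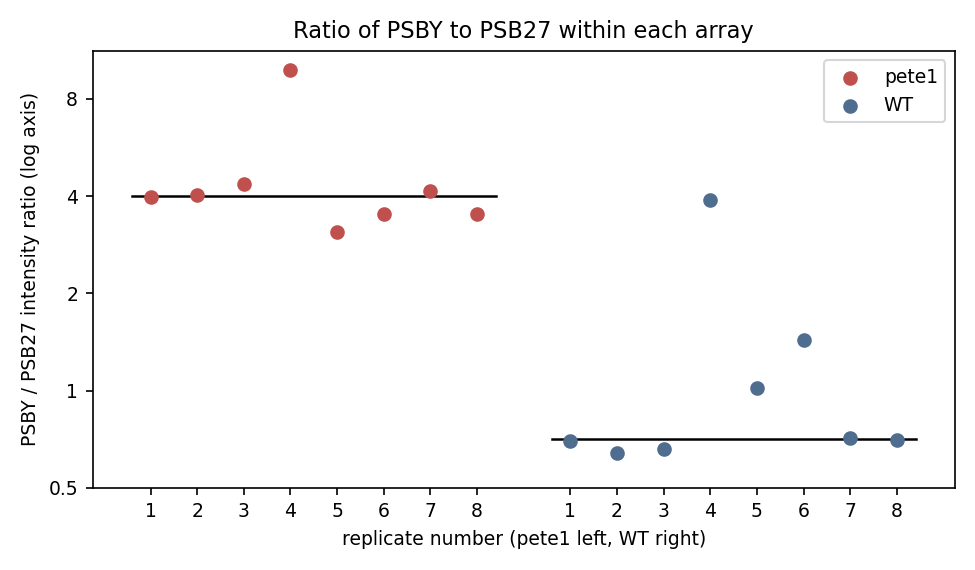
Intensity ratio of PSBY to PSB27 (log axis) on each array by replicate number, pete1 left and WT right, with bars at the group medians of 4.0 and 0.708. Apart from WT replicate 4, at 3.90, the WT arrays lie at 1.43 or below and the pete1 arrays at 3.10 or above.

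PSBW also differed from PSB27: the log2 ratio was 2.16 higher in pete1, at 5.79 ± 0.61 in pete1 and 3.63 ± 1.16 in WT (SD, n = 4 averages each; exact permutation p = 0.0571, adjusted 0.286; over 16 arrays 0.00155 and 0.00777). PSAN over PSB27 was 1.80 higher in pete1 (exact permutation p = 0.114 over averages and 0.0168 over 16 arrays, adjusted 0.357 and 0.0559). PSB27 over LHCB1.5 differed by -2.23 (exact permutation p = 0.143 and 0.0401, adjusted 0.357 and 0.100). The 6 ratios among PSAN, PSBW, PSBY and LHCB1.5 differed between groups by -0.43 to 0.04 on the log2 scale, with exact permutation p from 0.543 to 1.0 over averages. This does not show that these 4 genes changed alike, since the SDs of those ratios reached 2.4.

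The 5 genes did not rise and fall together across arrays. After group means were removed, the 10 correlations between genes over the 8 averages had a median Pearson r of -0.32, from -0.70 to 0.76, with 3 above 0. Over all pairs of probes the median was 0.02, and among the brightest 10% of probes it was -0.02, with 90% of pairs between -0.80 and 0.85. The sign of the median depended on scaling: it was 0.22 with median centring. The arrays share their scaling, so these values describe the table and not the genes alone.

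PSBW and PSBY ran opposite (r = -0.70, exact permutation p = 0.0747; rho = -0.86, p = 0.0365), as did PSAN and PSB27 (r = -0.62, p = 0.118; rho = -0.86, p = 0.0139). PSAN and PSBY had an r of -0.68 (exact permutation p = 0.102) and a rho of -0.48 (p = 0.267). After adjustment over the 10 pairs none of these passed, with an adjusted p of 0.394 for each r. For rho the adjusted p was 0.182, 0.139 and 0.668 in that order. Without the 2 averages farthest from the median of the first gene, r was -0.90 for PSBW and PSBY and -0.42 for PSAN and PSB27. For PSAN and PSBY it turned to 0.40. The highest r, that of PSBY and PSB27 (0.76, exact permutation p = 0.262, adjusted 0.553; rho = 0.64, p = 0.139, adjusted 0.463), rested on such averages and was -0.29 without them.

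The probes most like each gene were sought among those naming 1 gene, by Pearson r of deviations from the group mean over the 16 arrays. The values are descriptions, since consecutive arrays are alike. For PSAN they were AT1G32730 (r = 0.98), GLX2-1 (0.95, median intensity 0) and PRA1.B6 (0.95), and for PSBY AT5G19210 (0.97), AT5G50350 (0.96) and AT5G26850 (0.96). For PSBW they were AT2G27290 (0.88), AT1G03810 (0.82) and AT4G09620 (0.82), and for PSB27 AT1G21350 (0.86), AT4G08940 (0.75) and AT1G05340 (0.75). AT2G27290, the closest to PSBW within groups, went the other way between them: its log2 change was -1.08 (limma adjusted p = 0.0358 over 16 arrays and 0.310 over averages), while that of PSBW was 0.78. Its probe number is 28 from that of PSBW, and the probe 24 numbers on from PSBW, which names no single gene, had r = 0.80.

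LHCB1.5 was followed most closely by CCL (AT3G26740, CCR-like), with r = 0.99, then by AT1G13970 and ATSPS4F (both 0.96). All of these have probe numbers near that of LHCB1.5, at distances of 12, 26 and 16. The probes 12 and 24 numbers on from LHCB1.5, which name no single gene, had median intensities of 19.2 and 19.5 and r of 0.96 and 0.88. Over all probes the median r with the probe 12 numbers on was 0.27, and it was 0.58 for the 33 such pairs in which both are among the brightest 10%, against 0.02 over all pairs. What probe numbers say about position on the array is not given in the sources used here, and the part of neighbouring spots in the LHCB1.5 and PSBW values was not tested. CCL had intensities of 3.13, 4.48 and 7.10 (lowest, median and highest) in pete1 and 1.99, 4.89 and 9.83 in WT, and its change between groups was 0.09 (limma adjusted p = 0.881 over 16 arrays and 0.940 over averages).

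**Figure D4:**
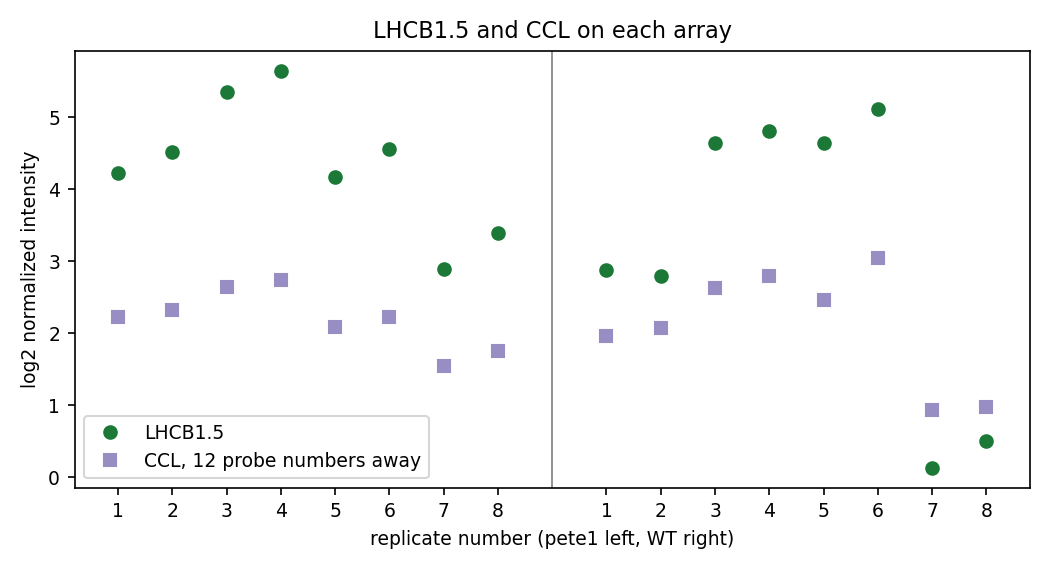
Log2 normalized intensity of LHCB1.5 (circles) and CCL (squares) on each array by replicate number, pete1 left and WT right. Both are lowest on WT replicates 7 and 8, where LHCB1.5 is at 0.13 and 0.51 and CCL at 0.93 and 0.98.

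Of 118 genes listed for the light reactions (both photosystems, antenna, electron carriers, ATP synthase and thylakoid assembly), 9 had a probe of their own: these 5 and 4 others. Over 16 arrays 2 of the 9 rose, where 8.23% of all probes did, and 0 fell. In limma over averages 0 of the 9 passed, and 2 had an unadjusted p under 0.05, as had 544 of all 3439 probes. The median change of the 9 was 1.09, against 0.22 for all probes, and with 1 floor for all arrays it was 0.57, against 0.01. The second rise was that of AT2G21530, of the ATP synthase list, with a change of 1.43 (limma adjusted p = 0.0491 over 16 arrays and 0.304 over averages), whose intensity was 0 on 13 of 16 arrays. With that floor its change was 0.39 (adjusted p = 0.392). The other 3, AT1G22700, AT3G29185 and CCB3, an assembly factor of the cytochrome complex, had median intensities of 0.0617, 0 and 0.0639 and did not pass (limma adjusted p = 0.106, 0.0617 and 0.0765 over 16 arrays, and 0.336, 0.318 and 0.324 over averages). Their changes of 1.33, 1.09 and 1.07 were 0.87, 0.17 and 0.57 with that floor. Of 55 genes listed for the Calvin cycle, chlorophyll synthesis and plastid thioredoxins, 7 were measured. In limma over 16 arrays 0 passed in either direction, and 3 had an unadjusted p under 0.05, as had 1281 of all 3439 probes. Over averages both counts of the 7 were 0. Their median change was 0.61, or 0.19 with 1 floor for all arrays; SBPASE, at 0 on 14 of 16 arrays, had 1.06 and 0.10.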

How the data were processed

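The deposited table holds 1 intensity per probe and array for 16 arrays. The sources used here do not say how the authors scanned, background-corrected or scaled the arrays, or which genome build they used; from their range, 0 to 100, the values are taken to be linear and scaled to the brightest spots of each array. The number of arrays limits the precision. Groups and replicate numbers came from the sample titles. Probes were named from the platform annotation: 692 name 1 gene, of which 690 matched RefSeq TAIR10.1, used for names alone; 870 name several and 1877 none, and no gene was named from these.

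Intensities were quantile-normalized (limma 3.58.1, R 4.3.3), each array was floored at the 5th percentile of its values above 0, and log2 was taken. All 3439 probes were compared with lmFit and eBayes, two-sided, with Benjamini-Hochberg adjustment at 0.05, and the fits were tested on simulated data. Other scalings, floors, filters, array weights, blocks, averages of consecutive arrays and left-out arrays were alternatives. Averages with cyclic loess, with the pair number as a block or with a pair left out, and leaving out replicates 1 and 2 of both groups, were added after seeing the data. Ratios used log2 deposited values, and exact permutation tests were two-sided.

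The 5 genes and the gene lists (197 entries, 193 matched, 13 of them by a locus tag added later) were chosen with earlier results of these data known. Named genes are the 5, all measured genes of the light reaction lists, and the 3 probes with 1 gene most like each; in other lists counts are given. Of the lists of root, guard cell, phloem, seed and pollen markers 0 genes were measured.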

Additional observations from a re-analysis of the deposited data

Results flagged for a closer look

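In the 12 groups of 8 values searched (each of the 5 genes and the ratio of PSBY to PSB27, by group), 2 single arrays lay far from the rest, where chance gives about 1 in 20 groups. Both concern the log2 ratio of PSBY to PSB27, and both arrays carry replicate number 4. On pete1 replicate 4 the ratio was 3.30, followed by 2.12 on the nearest pete1 array, and on WT replicate 4 it was 1.96, followed by 0.51 on the nearest WT array. PSB27 had intensities of 0.439 on pete1 replicate 4 and 0.550 on WT replicate 4, against 0.427 to 1.17 on the other pete1 arrays and 0.754 to 3.96 on the other WT arrays. The cause was not tested.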

How the results depend on the processing

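No gene changed direction in 41 other settings of the fit, but these reuse the same arrays and are not separate tests. PSBY kept its call in 16 of them. It lost it on the deposited scale (0.95), with pairs as a random block (1.13) and over averages with quantile normalization (1.13), the deposited scale (0.95), median centring (1.42), 1 floor common to all arrays (1.13), cyclic loess (1.03) and the pair number as a replicate block (1.13). With arrays or pairs left out its change was 0.66 to 1.41. PSBW gained a call with median centring (1.46), the 75th percentile (1.43) and the replicate block (0.78, adjusted p = 0.0437, or 0.317 over averages), and PSAN with array weights (0.84, adjusted p = 0.0273). LHCB1.5 and PSB27 gained none. With the replicate block their limma adjusted p was 0.075 and 0.0784 over 16 arrays, and 0.293 and 0.317 over averages. So 2 of the 5 genes were called in each of the 4 settings in which PSBW or PSAN gained a call. Of all probes 10.3% (median centring), 10.7% (75th percentile), 14.4% (replicate block) and 22.2% (array weights) were called there. The count was 0 in the 8 settings where PSBY lost its call, with 0.204% to 7.82% of all probes called. With arrays or pairs left out it was 0 to 1, with 0.145% to 25.4% of all probes called.

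The 464 calls over all probes became 269 on the deposited scale, 775 with the 1st percentile floor, 762 with array weights and 62 with the random block. Over averages, which are fewer samples, there were 9, or 7 (deposited), 20 (median centring), 35 (common floor), 19 (cyclic loess) and 16 (replicate block). With arrays or pairs left out there were 5 to 872. The median correlation among the genes turned to 0.22 with median centring; the cause was not tested. Same-numbered pete1 and WT arrays correlate at 0.0109 to 0.408, over 0.1 in 7 of 8. Whether the numbers pair these arrays is not known, since the labels do not say, and the main fit does not pair them. With the replicate block 494 probes were called.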

Other observations

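The LHCB1.5 to PSBW intensity ratio, antenna against a core subunit of the same photosystem, ran from 0.128 to 2.02 on pete1 arrays (median 0.407) and from 0.0601 to 2.46 on WT arrays (median 0.570). In both groups it was highest on replicates 3 and 4 and lowest on replicates 7 and 8: pete1 had 1.74 and 2.02 against 0.128 and 0.168, and WT had 2.46 and 2.24 against 0.0601 and 0.0779. The labels do not say what the replicate numbers stand for.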
